A study of Rattus norvegicus with 30 samples.

Results

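The hypoxia and glycolysis response genes were followed in rat lung after severe acute pancreatitis (SAP). The 10 genes were Hif1a, Egln3, Slc2a1, Hk2, Pfkfb3, Ldha, Pdk1, Vegfa, Adm and Bnip3. The list was drawn up with earlier results of these data known, and its members were taken by their symbol from 22914 genes with counts and from 22907 genes with FPKM values (fragments scaled to gene length and to the library's mapped fragments). Each symbol was found once in each table.

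When oxygen is short, the alpha subunit of hypoxia-inducible factor (HIF) escapes hydroxylation and destruction, pairs with Arnt and binds short DNA motifs beside its target genes. The targets import glucose, speed glycolysis, turn pyruvate into lactate instead of sending it to the mitochondria, build vessels and widen them. Several of them also respond to inflammatory signals and to glucocorticoids, and neutrophils depend on glycolysis for their energy. In lung, Vegfa is made mainly by the alveolar epithelium.

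Lung RNA came from 30 rats (male, Sprague Dawley, 8 weeks old) in 10 groups of 3, killed 6 or 24 hours after the operation. In Sham rats the pancreas was only turned over, and Con rats received saline in the biliopancreatic duct. SAP, DEX and Emo rats received 5.0% sodium taurocholate, a bile salt, by that route. DEX rats were then given the glucocorticoid dexamethasone intravenously at 10 mg/kg, and Emo rats the plant anthraquinone emodin into the stomach, for which the sample description gives 10 mg/kg and the treatment protocol 40 mg/kg. Dosing took place at 2 and 12 hours, which means 1 dose for lungs taken at 6 hours. Rats without DEX received saline into the vein, and rats without emodin received carboxymethylcellulose sodium into the stomach. All rats had pentobarbital anaesthesia and an operation, so Sham is not untreated lung, and the rats within a group are separate animals.

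Each library held between 16813949 and 34692306 reads on genes. By the paper's mapping statistics, every Sham and Con library had a larger share of uniquely mapped reads than any SAP, DEX or Emo library. Among the SAP, DEX and Emo libraries, every Emo-24h library had a larger share than any library of another group. Every DEX-24h library had a larger share than any SAP-24h or DEX-6h library. The part of these shares in the differences from Sham and Con was not tested. Their part in the differences between SAP, DEX and Emo and in the changes with time was not tested either. The 10 genes were all above the low count filter, with 90 reads (Egln3) to 21421 reads (Ldha) per library. The lung was recognisable in all 30 libraries, with summed levels of 25230 to 48230 FPKM for 8 alveolar type 2 markers and 1267 to 3620 FPKM for 6 alveolar type 1 markers. Neutrophil markers were uneven. The 9 genes summed to between 4689 and 16590 FPKM in SAP-24h, between 215.7 and 9402 FPKM in Sham-24h and between 159.4 and 1002 FPKM in Con-24h. Of these 6 control lungs Sham-24h replicate 3 alone, with its 9402 FPKM, lay inside the SAP-24h range.

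HIF binds the core ACGTG or GCGTG. This core was searched on both strands in the 250 bases before the start of each gene (RefSeq, rat build GRCr8, 10 of 10 genes matched, 11 windows because Vegfa has 2). It was present in 6 genes (Hif1a, Slc2a1, Ldha, Pfkfb3, Pdk1 and Bnip3) and not in these windows of Vegfa, Hk2, Egln3 and Adm. Of 33469 windows of the same length in the whole table, 36.7% held it, 16.6% for ACGTG and 25.9% for GCGTG. The E-box CACGTG, which other factors bind, contains ACGTG on both strands and stood in 5.59% of windows. The 4 promoters below were picked, after the values were seen, from the 6 genes that hold the core, to show how differently the core is placed in genes of glucose uptake, glycolysis and mitophagy. Each line is the 170 bases upstream of the start, 5′ to 3′ on the gene's strand, with the core in capitals as it reads on that strand (CACGT and CACGC are the core on the opposite strand). They lie at chr5:138002352-138002521 on the plus strand, chr1:106507922-106508091 on the plus strand, chr17:71944763-71944932 on the plus strand and chr1:203154963-203155132 on the minus strand.
Slc2a1: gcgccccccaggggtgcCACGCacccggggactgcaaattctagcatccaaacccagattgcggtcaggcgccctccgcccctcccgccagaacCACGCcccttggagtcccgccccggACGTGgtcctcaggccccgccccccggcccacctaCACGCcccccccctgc
Ldha: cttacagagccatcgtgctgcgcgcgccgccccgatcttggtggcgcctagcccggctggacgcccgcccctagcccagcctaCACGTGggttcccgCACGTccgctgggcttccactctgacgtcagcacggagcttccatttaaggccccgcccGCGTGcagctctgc
Pfkfb3: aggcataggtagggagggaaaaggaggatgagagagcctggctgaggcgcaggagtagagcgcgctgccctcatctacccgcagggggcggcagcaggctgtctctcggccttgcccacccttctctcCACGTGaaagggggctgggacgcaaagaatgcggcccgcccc
Bnip3: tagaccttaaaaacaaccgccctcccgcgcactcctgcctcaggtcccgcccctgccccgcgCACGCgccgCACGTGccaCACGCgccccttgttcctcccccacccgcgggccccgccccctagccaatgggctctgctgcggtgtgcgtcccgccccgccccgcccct
In these windows Slc2a1 held 1 ACGTG and 3 GCGTG, Ldha 3 and 1, Pfkfb3 2 and 0, and Bnip3 2 and 2. In Ldha, Pfkfb3 and Bnip3 a single CACGTG accounted for 2 of the ACGTG matches, so that the whole count for Pfkfb3 was this E-box. A match describes the letters only.

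Ldha was the most abundant of the 10 genes, with a mean of 227 FPKM over the 30 lungs. Vegfa followed with 55.6 FPKM, Bnip3 with 41.4 FPKM, Pfkfb3 with 31.8 FPKM and Slc2a1 with 14.7 FPKM. Hif1a (8.95 FPKM), Adm (8.17 FPKM), Pdk1 (7.47 FPKM), Hk2 (5.58 FPKM) and Egln3 (1.72 FPKM) were lower. Adm and Bnip3 varied most, by 7.73 and 6.32 times between the lowest and the highest lung, and Hif1a least, by 2.00 times. When the 10 groups were ordered by their mean, neighbouring groups mostly overlapped: for Hif1a, Ldha, Pfkfb3, Hk2, Pdk1 and Egln3 all 9 neighbouring pairs shared values. Only 4 neighbouring pairs stood apart, DEX-24h above Emo-24h for Slc2a1, Emo-6h above DEX-6h for Vegfa, DEX-24h above DEX-6h for Adm and DEX-6h above SAP-24h for Bnip3.

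**Figure D1:**
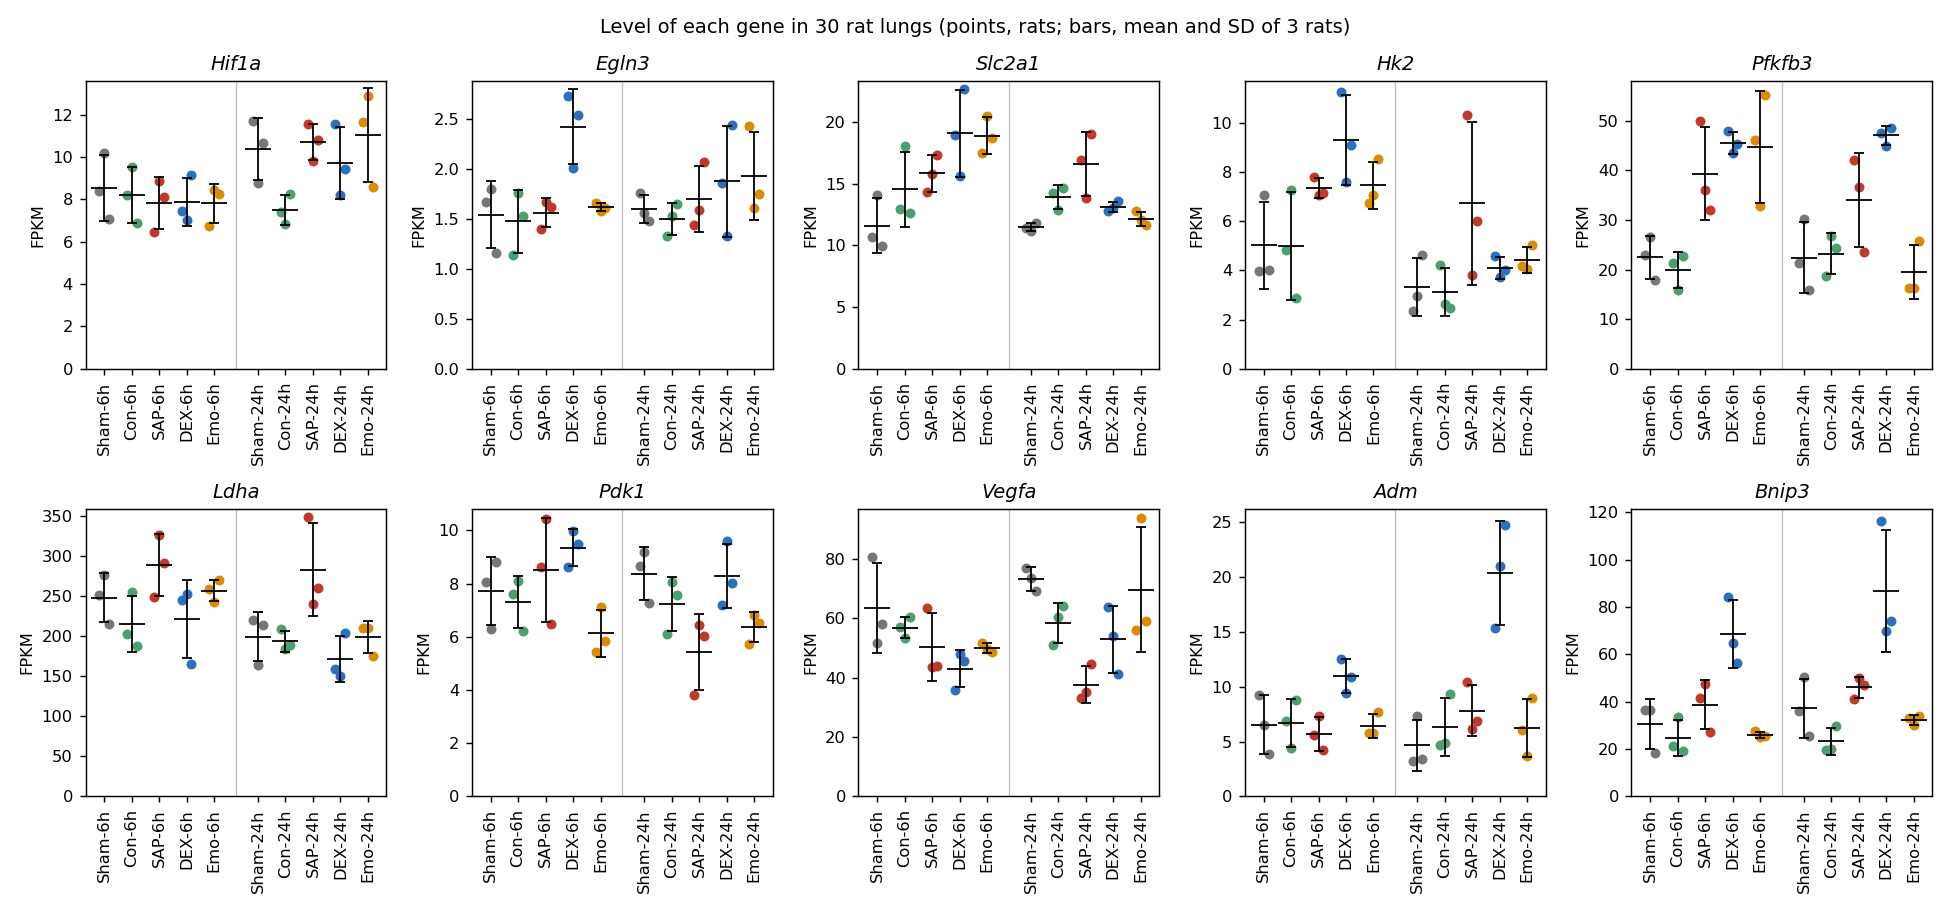
FPKM of each of the 10 genes (y axis, from 0) in the 10 groups (x axis), with a point for each rat and bars for the mean and SD of 3 rats. Adm and Bnip3 are highest in the DEX groups, Pfkfb3 stays near 47.0 FPKM in DEX-24h but averages 19.4 FPKM in Emo-24h, and Vegfa is lowest in SAP-24h.

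Of the genes of oxygen sensing, Hif1a was called by edgeR in 3 and Egln3 in 1 of the 24 comparisons. Hif1a, the oxygen-regulated subunit of HIF, is controlled mainly through protein stability. It read 11.5, 9.83 and 10.8 FPKM in SAP-24h lungs, 7.39, 6.83 and 8.23 FPKM in Con-24h lungs and 11.7, 8.77 and 10.7 FPKM in Sham-24h lungs. SAP-24h lay above Con-24h without overlap (log2 fold change 0.65 ± 0.16 SE, adjusted p = 0.00541 by the quasi-likelihood test of edgeR after Benjamini-Hochberg adjustment, as for every adjusted p given here unless another tool is named) but overlapped Sham-24h (0.18 ± 0.16, adjusted p = 0.463). Its level in SAP-6h lungs was 6.45, 8.85 and 8.13 FPKM, below all SAP-24h lungs (0.57 higher at 24 hours, adjusted p = 0.0337). Egln3, a prolyl hydroxylase that marks HIF for destruction and is itself a HIF target, read 2.73, 2.01 and 2.54 FPKM in DEX-6h lungs and 1.67, 1.80 and 1.16 FPKM in Sham-6h lungs. These groups did not overlap (log2 fold change 0.70 ± 0.20, adjusted p = 0.0271). Summed heart muscle markers read 259.3, 33.72 and 326.2 FPKM in these DEX-6h lungs and 18.99, 245.1 and 16.67 FPKM in the Sham-6h lungs, and their part in the difference was not tested. In every other group Egln3 averaged 1.48 to 1.93 FPKM, and edgeR called it in no other comparison. DESeq2 also called Egln3 higher in DEX-6h than in SAP-6h (0.66, adjusted p = 0.0442) and lower in Emo-6h than in DEX-6h (-0.61, adjusted p = 0.0427).

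Slc2a1, the glucose transporter of the cell surface, had the smallest standard error of the 10 genes. It read 16.9, 13.8 and 19.0 FPKM in SAP-24h lungs and 11.4, 11.2 and 11.8 FPKM in Sham-24h lungs. The DEX-24h lungs gave 12.78, 13 and 13.57 FPKM and the Emo-24h lungs 12.8, 12.0 and 11.7 FPKM, so that all 6 lay below the lowest SAP-24h lung. At 6 hours the Sham lungs gave 10.7, 14.1 and 9.96 FPKM, the DEX lungs 19.0, 15.6 and 22.7 FPKM and the Emo lungs 17.5, 20.5 and 18.7 FPKM. All DEX-6h and Emo-6h lungs lay above the Sham-6h lungs.

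Hk2, the inducible hexokinase that traps glucose in the cell, was uneven within SAP-24h. It read 10.3, 3.80 and 6.03 FPKM in SAP-24h lungs, 2.34, 2.98 and 4.63 FPKM in Sham-24h lungs and 4.24, 2.64 and 2.47 FPKM in Con-24h lungs. Replicate 1 of SAP-24h was the highest of these 9 lungs, replicate 3 came next, and replicate 2 lay within the Sham-24h and Con-24h ranges. At 6 hours Hk2 was 7.82, 7.06 and 7.17 FPKM in SAP lungs and 11.3, 7.60 and 9.11 FPKM in DEX lungs, whereas DEX-24h lungs gave 4.59, 3.72 and 4.0 FPKM.

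Pfkfb3 makes the metabolite that activates phosphofructokinase and so opens glycolysis. At 6 hours it was high in all rats that had received taurocholate: 50.01, 35.94 and 32.05 FPKM in SAP lungs, 48.0, 43.6 and 45.2 FPKM in DEX lungs and 46.1, 32.7 and 55.1 FPKM in Emo lungs. Sham-6h lungs gave 22.91, 26.63 and 17.95 FPKM and Con-6h lungs 21.3, 15.8 and 22.8 FPKM, all below these 9 lungs. At 24 hours the drugs parted. DEX lungs kept 47.5, 45.0 and 48.6 FPKM, while Emo lungs gave 16.3, 16.3 and 25.8 FPKM, inside the range of the Sham-24h lungs (21.3, 30.1 and 15.8 FPKM). SAP-24h lungs gave 42.1, 36.6 and 23.6 FPKM and overlapped both Sham-24h and Emo-24h.

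Ldha, the lactate dehydrogenase subunit that turns pyruvate into lactate, read 348.3, 239.4 and 260.0 FPKM in SAP-24h lungs. The Sham-24h lungs gave 220.3, 164.1 and 213.2 FPKM, all lower. DEX-24h lungs gave 159.4, 150.2 and 203.5 FPKM and Emo-24h lungs 210.3, 209.4 and 175.2 FPKM, so that neither treated group reached the lowest SAP-24h lung. In SAP-6h lungs Ldha was already 248.3, 326.2 and 291.3 FPKM, but Sham-6h lungs, at 251.2, 275.8 and 215.2 FPKM, overlapped them. The rat genome holds 30 named Ldha pseudogenes and 8 of Bnip3 (RefSeq, GRCr8), and reads that matched several places were discarded, so the levels of these genes are less certain than those of the others.

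Pdk1, a kinase that inhibits pyruvate dehydrogenase in the mitochondria, was called by edgeR in none of the 24 comparisons. DESeq2 called it in 3, higher in DEX-24h than in SAP-24h (0.53, adjusted p = 0.0493), lower in Emo-6h than in DEX-6h (-0.64, adjusted p = 0.0213) and lower in SAP-24h than in SAP-6h (-0.56, adjusted p = 0.0373). Its mean was lowest in SAP-24h, where lungs gave 3.80, 6.45 and 6.02 FPKM, all under the Sham-24h lungs with 8.67, 9.19 and 7.27 FPKM. The log2 fold change between these groups was -0.51 ± 0.19 with an adjusted p of 0.0723, past the 0.05 threshold in limma on log2(FPKM + 1) (-0.57, adjusted p = 0.0325) and not in DESeq2. The direction was opposite to that of Slc2a1, Hk2 and Ldha in the same lungs.

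Vegfa, the vascular growth and permeability factor, was the only member that edgeR called lower in SAP-24h than in Sham-24h. It read 33.1, 35.3 and 44.7 FPKM in SAP-24h lungs against 77.0, 73.6 and 69.1 FPKM in Sham-24h and 50.9, 60.3 and 64.3 FPKM in Con-24h. No SAP-24h lung reached any of these 6. Emo-24h lungs gave 56.2, 93.8 and 59.1 FPKM, all above SAP-24h, and DEX-24h lungs 63.8, 54.0 and 41.2 FPKM, overlapping it.

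Adm, the vasodilator peptide adrenomedullin, and Bnip3, a mitochondrial outer membrane protein of mitophagy and cell death, were highest in DEX lungs. Adm read 15.4, 21.0 and 24.8 FPKM in DEX-24h lungs, above each of the other 27 lungs, of which the highest was a DEX-6h lung with 12.54 FPKM. SAP-24h lungs gave 10.5, 6.13 and 6.89 FPKM, Sham-24h lungs 3.20, 7.32 and 3.41 FPKM and Emo-24h lungs 6.09, 3.66 and 8.98 FPKM. These last groups overlapped each other.

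Bnip3 read 116.46, 70.02 and 74.14 FPKM in DEX-24h lungs and 84.3, 64.8 and 56.4 FPKM in DEX-6h lungs. These 6 were the highest of the 30. SAP-24h lungs gave 41.0, 50.04 and 46.98 FPKM, Sham-24h lungs 36.0, 50.3 and 25.4 FPKM and Con-24h lungs 19.7, 20.2 and 29.9 FPKM. Emo-24h lungs were narrow, at 32.9, 30.1 and 34.1 FPKM, and lay below all SAP-24h and DEX-24h lungs.

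SAP against Sham at 24 hours asked how established pancreatitis changed these genes. At 24 hours 4 of 10 genes were called, against 12.4% of the 15934 genes tested. Slc2a1 (log2 fold change 0.66 ± 0.13, adjusted p = 0.00317), Ldha (0.65 ± 0.18, adjusted p = 0.0203) and Hk2 (1.17 ± 0.34, adjusted p = 0.0268) were higher and Vegfa (-0.83 ± 0.20, adjusted p = 0.0108) was lower. Pfkfb3 (0.74 ± 0.27, adjusted p = 0.0728) and Adm (0.89 ± 0.39, adjusted p = 0.133) did not pass in edgeR. The median log2 fold change of the 10 genes was 0.54, and that of all genes tested was -0.03. Neutrophil markers were higher in all SAP-24h lungs than in 2 of the 3 Sham-24h lungs, and their part in these differences was not tested. In whole lung, fewer cells of a type and less RNA per cell cannot be told apart. With 1 library left out in turn, Slc2a1 kept its call in all 6 refits, Vegfa lost it without SAP-24h replicate 1 (adjusted p = 0.0524), Ldha without SAP-24h replicate 1 or Sham-24h replicate 2 (fold changes from 0.42 to 0.79 over the refits, adjusted p up to 0.13) and Hk2 without SAP-24h replicate 1 or Sham-24h replicate 1 or 2 (from 0.65 to 1.52, adjusted p up to 0.227). All 4 calls were kept without Sham-24h replicate 3. A fit of these 6 libraries alone called 0 of the 10 genes, DESeq2 called 5, Pfkfb3 among them (0.78, adjusted p = 0.0355), and limma on log2(FPKM + 1) called 3, Slc2a1, Vegfa and Pdk1, and lost Ldha and Hk2.

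Against Con-24h, whose rats received saline in the duct, 5 of 10 genes were called in SAP-24h (22.1% of all genes), all higher: Hif1a (given above), Slc2a1 (0.38 ± 0.13, adjusted p = 0.0393), Ldha (0.68 ± 0.18, adjusted p = 0.00872), Hk2 (1.26 ± 0.34, adjusted p = 0.0111) and Bnip3 (1.11 ± 0.28, adjusted p = 0.00675). Slc2a1 overlapped between these groups and lost its call without Con-24h replicate 1 or 2 or SAP-24h replicate 1 or 3 (adjusted p up to 0.155), Hk2 without Con-24h replicate 2 or SAP-24h replicate 1 (up to 0.136) and Ldha without SAP-24h replicate 1 (up to 0.0806), whereas Hif1a and Bnip3 kept theirs in 6 of 6 refits. The fit of these 6 libraries alone kept only Bnip3, and limma on log2(FPKM + 1) lost Slc2a1 and called Vegfa lower (-0.62, adjusted p = 0.024). DESeq2 also called Pfkfb3 (0.70, adjusted p = 0.0455). The controls differed from each other: Sham-24h against Con-24h called 9.85% of all genes but 0 of the 10 by edgeR, with 3 at an unadjusted p under 0.05, 1 by DESeq2 (Hif1a) and 0 by limma on log2(FPKM + 1). At 6 hours Sham and Con differed in 0% of all genes and in 0 of the 10 by edgeR, DESeq2 and limma on log2(FPKM + 1), with 1 of the 10 at an unadjusted p under 0.05.

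At 6 hours edgeR called none of the 10 genes between SAP and either control. SAP-6h against Sham-6h called 0 of 10 genes by edgeR (0.27% of all genes), with 2 at an unadjusted p under 0.05, 1 called by DESeq2 and 0 by limma on log2(FPKM + 1). The 2 were Pfkfb3 (0.86 ± 0.27, adjusted p = 0.153) and Slc2a1 (0.50 ± 0.13, adjusted p = 0.106), and neither overlapped between the groups. SAP-6h against Con-6h called 0 of 10 by edgeR (0.207% of all genes), with 3 at an unadjusted p under 0.05, 1 called by DESeq2 and 0 by limma on log2(FPKM + 1). Pfkfb3 gave 1.05 ± 0.27 there (adjusted p = 0.121). Whether the SAP difference itself changed from 6 to 24 hours was tested as an interaction, which called 0 of 10 genes by edgeR and by DESeq2 and limma on log2(FPKM + 1) (0.0314% of all genes), with 1 at an unadjusted p under 0.05.

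Emodin was compared with untreated SAP at 24 hours, and 4 of 10 genes were called (8.59% of all genes). Slc2a1 (-0.60 ± 0.13, adjusted p = 0.00838), Ldha (-0.68 ± 0.18, adjusted p = 0.0219) and Pfkfb3 (-0.97 ± 0.27, adjusted p = 0.0317) were lower and Vegfa (0.73 ± 0.20, adjusted p = 0.029) was higher. Hk2 gave -0.78 ± 0.34 with an adjusted p of 0.14. Pfkfb3 overlapped between the groups and the other called genes did not. Emo-24h against Sham-24h called 0 of 10 genes by edgeR, DESeq2 and limma on log2(FPKM + 1) and 0% of all genes, with 1 of the 10 (Pdk1, -0.42 ± 0.19) and 478 of all genes at an unadjusted p under 0.05. Adm gave 0.41 ± 0.39 there (SE). SAP-24h serves in both the comparison with Sham and that with Emo, so opposite signs there share its lungs.

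Of these calls, Slc2a1 held in 6 of 6 refits with 1 library left out. Vegfa lost its call without Emo-24h replicate 2 or SAP-24h replicate 1 or 2 (adjusted p up to 0.217, fold changes from 0.45 to 0.88), Ldha without Emo-24h replicate 1 or 2 or SAP-24h replicate 1 (up to 0.113) and Pfkfb3 without Emo-24h replicate 1 or 2 or SAP-24h replicate 1 or 2 (up to 0.133). The fit of these 6 libraries alone called 0 of 10. Limma on log2(FPKM + 1) called Vegfa and Pfkfb3 and lost Slc2a1 and Ldha.

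DEX against SAP at 24 hours called 3 of 10 genes (7.71% of all genes). Slc2a1 (-0.43 ± 0.13, adjusted p = 0.0444) and Ldha (-0.83 ± 0.18, adjusted p = 0.00602) were lower, and Adm (1.27 ± 0.39, adjusted p = 0.0441) was higher. Bnip3 (0.83 ± 0.27, adjusted p = 0.063) and Hk2 (-0.83 ± 0.34, adjusted p = 0.135) did not pass in edgeR. DESeq2 called Bnip3 (0.82, adjusted p = 0.0305), whose groups did not overlap, and Pdk1. Ldha held in 6 of 6 refits, while Adm (all 3 DEX-24h libraries and SAP-24h replicates 2 and 3) and Slc2a1 (all 3 DEX-24h libraries and SAP-24h replicates 1 and 3) each lost the call when any of 5 libraries was left out, with adjusted p up to 0.135 and 0.157. The fit of these 6 libraries alone called 0 of 10, that with the replicate number as a block called 1 (Ldha), and limma on log2(FPKM + 1) lost Slc2a1.

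DEX-24h differed from Sham-24h in 3 of 10 genes (6.97% of all genes), all higher and none overlapping: Adm (2.16 ± 0.40, adjusted p = 0.00184), Bnip3 (1.26 ± 0.28, adjusted p = 0.0064) and Pfkfb3 (1.10 ± 0.27, adjusted p = 0.0147). Adm and Bnip3 held in 6 of 6 refits, with log2 fold changes from 1.961 to 2.678 and from 1.03 to 1.56, and Pfkfb3 lost its call without Sham-24h replicate 1 or 3 (adjusted p up to 0.0732). In the fit of these 6 libraries alone Adm and Pfkfb3 were called and Bnip3 was not. Slc2a1, Hk2 and Ldha gave 0.23 ± 0.13, 0.34 ± 0.34 and -0.18 ± 0.18 and did not pass.

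**Figure D2:**
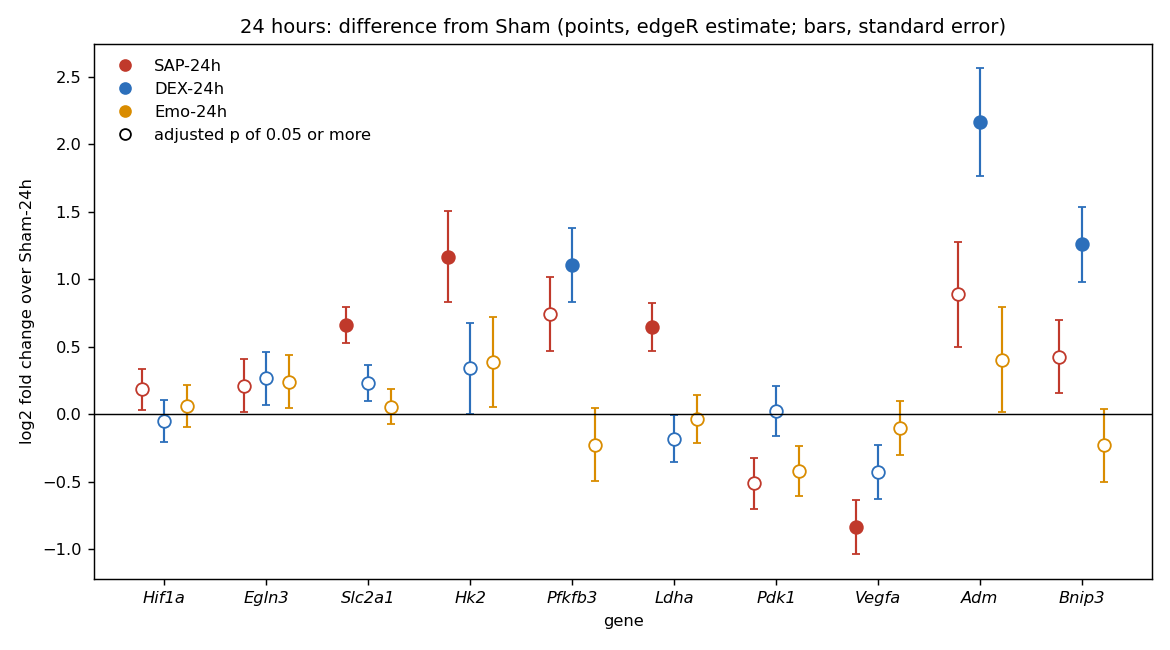
Log2 fold change over Sham-24h (y axis) of each gene (x axis) in SAP-24h, DEX-24h and Emo-24h, as edgeR estimates with their standard errors, filled where the adjusted p was under 0.05. SAP-24h has filled points at Slc2a1, Hk2, Ldha and Vegfa, DEX-24h at Pfkfb3, Adm and Bnip3 (1.10, 2.16 and 1.26), and Emo-24h has no filled point.

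The drugs were set against each other directly. Emo-24h against DEX-24h called 3 of 10 genes (8.89% of all genes), all lower with emodin and without overlap: Adm (-1.76 ± 0.39, adjusted p = 0.00668), Bnip3 (-1.49 ± 0.28, adjusted p = 0.00166) and Pfkfb3 (-1.33 ± 0.28, adjusted p = 0.00383). Bnip3 and Pfkfb3 held in 6 of 6 refits and Adm lost its call without Emo-24h replicate 2 (adjusted p = 0.0514). Slc2a1 and Ldha, both called lower than in SAP with each drug, differed by -0.18 ± 0.13 and 0.15 ± 0.18 between the drugs. At 6 hours Emo against DEX called 1 of 10 (2.88% of all genes), Bnip3 (-1.41 ± 0.28, adjusted p = 0.0086), which lost its call without DEX-6h replicate 1 (adjusted p = 0.0567). DESeq2 called Egln3 and Pdk1 as well.

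Compared with SAP at 6 hours, neither drug moved any of the 10 genes past the threshold. DEX-6h against SAP-6h called 0 of 10 by edgeR (0.979% of all genes), with 4 at an unadjusted p under 0.05, 1 by DESeq2 (Egln3) and 0 by limma on log2(FPKM + 1). Emo-6h against SAP-6h called 0 of 10 by edgeR, DESeq2 and limma on log2(FPKM + 1) (0.0314% of all genes), with 2 at an unadjusted p under 0.05. Against Sham-6h, however, DEX-6h called 4 of 10 (9.75% of all genes), all higher: Slc2a1 (0.76 ± 0.13, adjusted p = 0.000943), Bnip3 (1.22 ± 0.28, adjusted p = 0.00739), Pfkfb3 (1.07 ± 0.27, adjusted p = 0.0166) and Egln3 (given above). Emo-6h called 2 of 10 (3.26% of all genes), Slc2a1 (0.74 ± 0.13, adjusted p = 0.00807) and Pfkfb3 (1.03 ± 0.27, adjusted p = 0.0403). Egln3 and Pfkfb3 in DEX-6h lost their calls in 4 and 3 of 6 refits (without DEX-6h replicate 1 or Sham-6h replicate 1 or 3, and for Egln3 also without DEX-6h replicate 3), and in Emo-6h Pfkfb3 lost it in 5 of 6 (kept only without Emo-6h replicate 2) and Slc2a1 without Sham-6h replicate 1. The fit of the compared libraries alone kept only Pfkfb3 in DEX-6h and called 0 of 10 in Emo-6h, and limma on log2(FPKM + 1) lost Egln3 in DEX-6h. DESeq2 also called Hk2 in DEX-6h (0.96, adjusted p = 0.037).

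**Figure D3:**
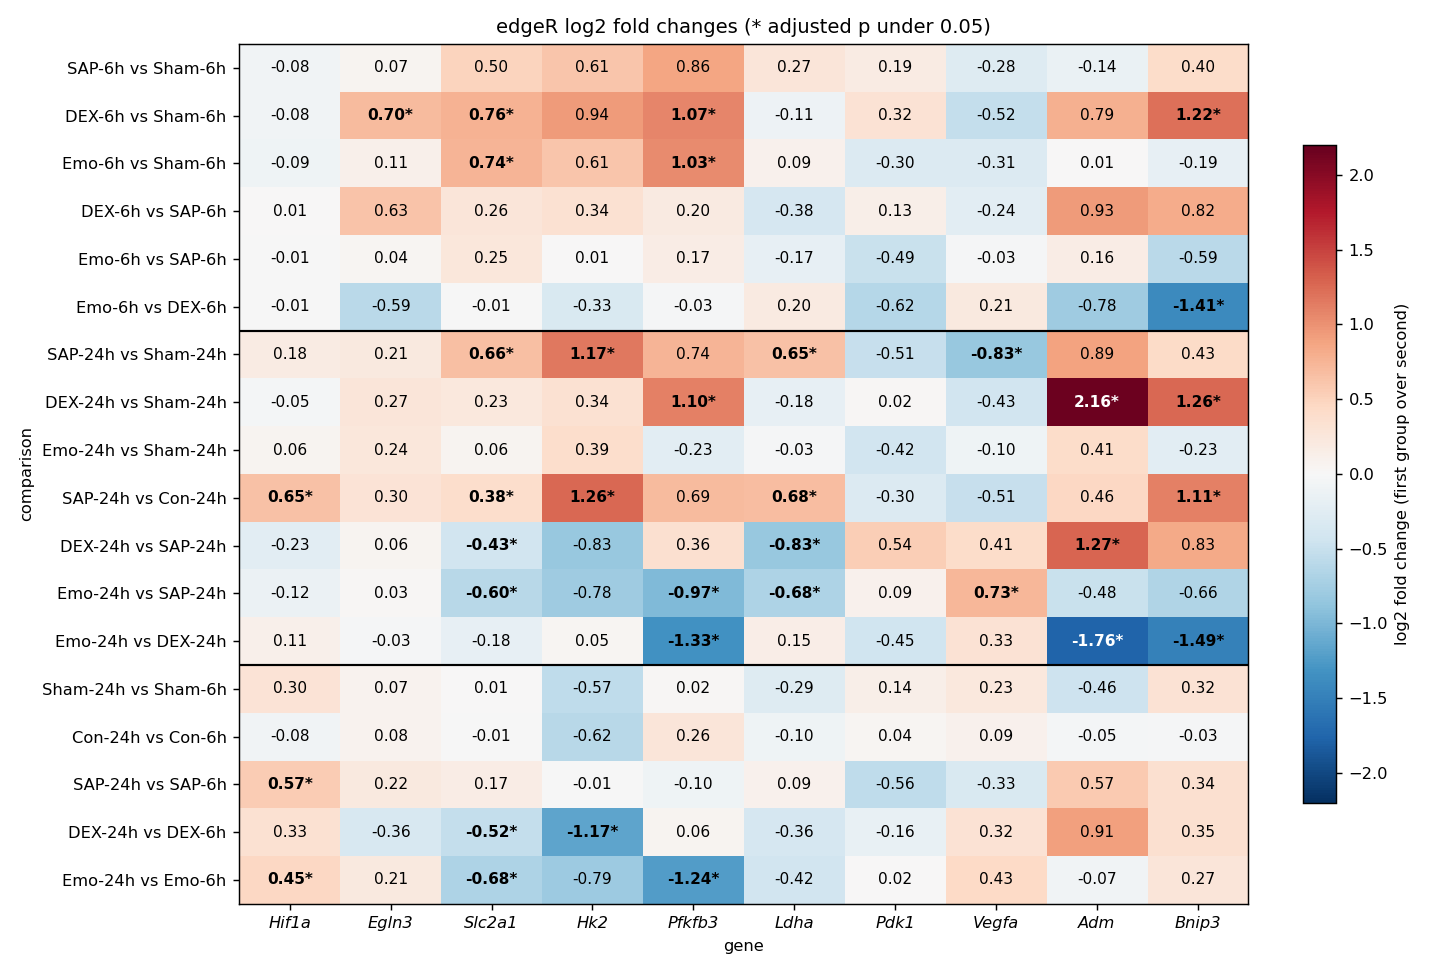
Log2 fold changes (colour and number, first group over second) of the 10 genes (x axis) in 18 of the 21 pairwise comparisons (y axis), 6 hours above, 24 hours in the middle and 24 against 6 hours below, with an asterisk for an adjusted p under 0.05. Pdk1 has no asterisk, Slc2a1 has the most (8), and the largest value is that of Adm in DEX-24h vs Sham-24h (2.16).

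The lungs at 24 hours were compared with those at 6 hours within each treatment. In Sham (0.992% of all genes) and Con (0.0126% of all genes) 0 of 10 genes were called by edgeR, by DESeq2 and by limma on log2(FPKM + 1), and 0 had an unadjusted p under 0.05. In SAP 1 of 10 was called (6.01% of all genes), Hif1a, which was higher at 24 hours as given above and lost its call without SAP-24h replicate 1 or 3 or SAP-6h replicate 1 or 3 (adjusted p up to 0.129). In DEX 2 of 10 were called (25.9% of all genes), Slc2a1 (-0.52 ± 0.13, adjusted p = 0.00606) and Hk2 (-1.17 ± 0.34, adjusted p = 0.0138), both lower at 24 hours, and Hk2 lost its call without DEX-6h replicate 1 (adjusted p = 0.0577). In Emo 3 of 10 were called (34.1% of all genes): Slc2a1 (-0.68 ± 0.13, adjusted p = 0.000507) and Pfkfb3 (-1.24 ± 0.28, adjusted p = 0.00159) were lower at 24 hours and kept their calls in 6 of 6 refits, and Hif1a (0.45 ± 0.16, adjusted p = 0.0278) was higher but lost its call in 3 of 6 (without Emo-24h replicate 1 or 2 or Emo-6h replicate 1). DESeq2 added Pdk1 in SAP and Hk2 (-0.82, adjusted p = 0.0444) and Ldha (-0.45, adjusted p = 0.0405) in Emo, all lower at 24 hours. The shares called by edgeR in DEX and Emo, 20% and 30%, are near those of all genes.

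The change of the drug effect with time was tested as an interaction, the difference from SAP at 24 hours minus that at 6 hours. For emodin 1 of 10 genes was called (3.57% of all genes), Slc2a1 (-0.85 ± 0.18, adjusted p = 0.023): relative to SAP it was 0.25 higher at 6 hours and 0.60 lower at 24 hours on the log2 scale. The call was lost without Emo-24h replicate 2, Emo-6h replicate 1 or SAP-6h replicate 2 (adjusted p up to 0.0879, estimates from -0.99 to -0.78). Pfkfb3 gave -1.14 ± 0.38 (adjusted p = 0.0815) and was called by DESeq2 (-1.17, adjusted p = 0.037). For DEX 0 of 10 were called by edgeR (0.169% of all genes), with 4 at an unadjusted p under 0.05, 1 by DESeq2 (Slc2a1) and 0 by limma on log2(FPKM + 1). There Slc2a1 gave -0.69 ± 0.18 (adjusted p = 0.11).

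Other genes of the same pathways were read from lists that leave out the 10 genes. In SAP-24h against Sham-24h, where 12.4% of all genes were called, 8 of 21 tested genes of glucose uptake and glycolysis were higher and 1 was lower, with a median log2 fold change of 0.29. Slc16a3, the lactate exporter, gave 1.46 ± 0.30 (adjusted p = 0.0036), Hk3, a hexokinase of myeloid cells, 1.36 ± 0.29 (adjusted p = 0.00504), Pkm, pyruvate kinase, 0.57 ± 0.14 and 0.68 ± 0.17 in its 2 entries (adjusted p = 0.0109 for both) and Pgam1, phosphoglycerate mutase, 0.46 ± 0.12 (adjusted p = 0.0139). Among 19 other hypoxia-induced genes 5 were higher and 0 lower, including Ndrg1 (0.70 ± 0.16, adjusted p = 0.00653) and Hmox1, the haem-degrading enzyme (1.18 ± 0.31, adjusted p = 0.017). The list of pyruvate entry into mitochondria also holds regulators of pyruvate dehydrogenase. Of its 10 tested genes 0 were called by edgeR and 1 by DESeq2, with 1 at an unadjusted p under 0.05. Of 6 tested genes of oxygen sensing by HIF 1 was called, a share near that of all genes. It was Egln2, another HIF prolyl hydroxylase (0.41 ± 0.13, adjusted p = 0.0387). Egln1, also on this list, was not matched by its symbol. Of 9 tested genes of the VEGF family and receptors 2 were called higher and 3 lower. Of 7 genes of the adrenomedullin receptor system 2 were called higher and 2 lower. Ramp3 (1.42 ± 0.39, adjusted p = 0.0204) was among the higher ones and Ramp1 (-0.855 ± 0.21, adjusted p = 0.0124) among the lower ones. Nrp1 (-1.16 ± 0.25, adjusted p = 0.00534) and Kdr (-0.83 ± 0.23, adjusted p = 0.0222), receptors of Vegfa, were lower, Flt1, its decoy receptor, was higher (1.39 ± 0.33, adjusted p = 0.00943), and of the adrenomedullin receptors the scavenger Ackr3 was higher (2.54 ± 0.36, adjusted p = 0.000473) and Calcrl lower (-0.92 ± 0.29, adjusted p = 0.0373).

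Against Con-24h, where 22.1% of all genes were called, the glycolysis list split, with 6 of 21 higher in SAP-24h, 4 lower and a median of 0.08. Hk3 (1.88 ± 0.30, adjusted p = 0.000404) and Slc16a3 (1.76 ± 0.30, adjusted p = 0.000667) were higher there too, and Pfkm (-1.11 ± 0.25, adjusted p = 0.00327), Aldoc (-0.98 ± 0.22, adjusted p = 0.00401), Pfkp (-0.51 ± 0.12, adjusted p = 0.00533) and Ldhb (-0.87 ± 0.30, adjusted p = 0.0381), named after their values were seen, were lower. Between the controls 3 of 21 were lower in Sham-24h than in Con-24h (Gpi, Pfkp and Aldoa), where 9.85% of all genes were called, with 9 at an unadjusted p under 0.05, 6 called by DESeq2 and a median of -0.17. Of the 19 other hypoxia-induced genes 9 were higher in SAP-24h than in Con-24h and 1 was lower, with a median of 0.55.

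With emodin at 24 hours, where 8.59% of all genes were called, 4 of the 21 glycolysis genes were lower than in SAP and 1 was higher, with a median of -0.31. Hk3 (-1.28 ± 0.29, adjusted p = 0.0111), Pgam1 (-0.49 ± 0.12, adjusted p = 0.0149) and Slc16a3 (-1.09 ± 0.29, adjusted p = 0.0262) were among them. Nrp1 (1.14 ± 0.25, adjusted p = 0.00926) and Kdr (0.87 ± 0.23, adjusted p = 0.0236) were higher. With DEX, where 7.71% of all genes were called, Kdr was higher too (0.86 ± 0.23, adjusted p = 0.0241). There 2 glycolysis genes were lower and 1 higher, with a median of -0.24: Pkm (-0.59 ± 0.14 and -0.54 ± 0.17 in its 2 entries, adjusted p = 0.0119 and 0.0444) and Slc16a3 (-1.14 ± 0.29, adjusted p = 0.0196) were lower and Aldoc, an aldolase, was higher (1.09 ± 0.22, adjusted p = 0.0044). Between the drugs Ramp3, which with Calcrl forms an adrenomedullin receptor, was lower in Emo-24h than in DEX-24h (-1.83 ± 0.39, adjusted p = 0.0049), and Ramp1, which with Calcrl forms the receptor of the related peptide CGRP, was higher (0.93 ± 0.21, adjusted p = 0.00763). These comparisons share the SAP-24h or DEX-24h lungs.

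From 6 to 24 hours 12 of the 21 glycolysis genes were lower in Emo, 1 was higher and 8 did not pass (median -0.57), where 34.1% of all genes were called. In DEX 10 were lower, 1 was higher and 10 did not pass (median -0.44), where 25.9% of all genes were called. The medians of all genes were 0.04 and 0.00. Eno1, enolase, gave -0.98 ± 0.12 in Emo (adjusted p = 2.07e-05) and -0.63 ± 0.12 in DEX (adjusted p = 0.00106), and Pfkl, a phosphofructokinase subunit, -1.03 ± 0.14 (adjusted p = 2.97e-05) and -0.66 ± 0.14 (adjusted p = 0.00169). The list's median was below 0 in the other groups as well. There edgeR called 0.992% of all genes in Sham, 6.01% in SAP and 0.0126% in Con. In Sham edgeR called 3 of 21 lower, among them Eno1 (-0.60 ± 0.12, adjusted p = 0.0305), and DESeq2 called 8, with 9 at an unadjusted p under 0.05 and a median of -0.26. In SAP both tools called 2, with 8 at an unadjusted p under 0.05 and a median of -0.17. In Con edgeR called 0 and DESeq2 1, with 7 at an unadjusted p under 0.05 and a median of -0.16. The interaction of emodin with time (3.57% of all genes) called 3 of the 21 by edgeR, all lower: Eno1 (-0.69 ± 0.17, adjusted p = 0.0362), Pfkl (-0.76 ± 0.19, adjusted p = 0.0369) and Hk3 (-1.54 ± 0.41, adjusted p = 0.0402). DESeq2 called 9 of the 21 there, and 12 had an unadjusted p under 0.05. The interaction of DEX with time (0.169% of all genes) called 0 of the 21 by edgeR and by DESeq2, with 6 at an unadjusted p under 0.05.

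**Figure D4:**
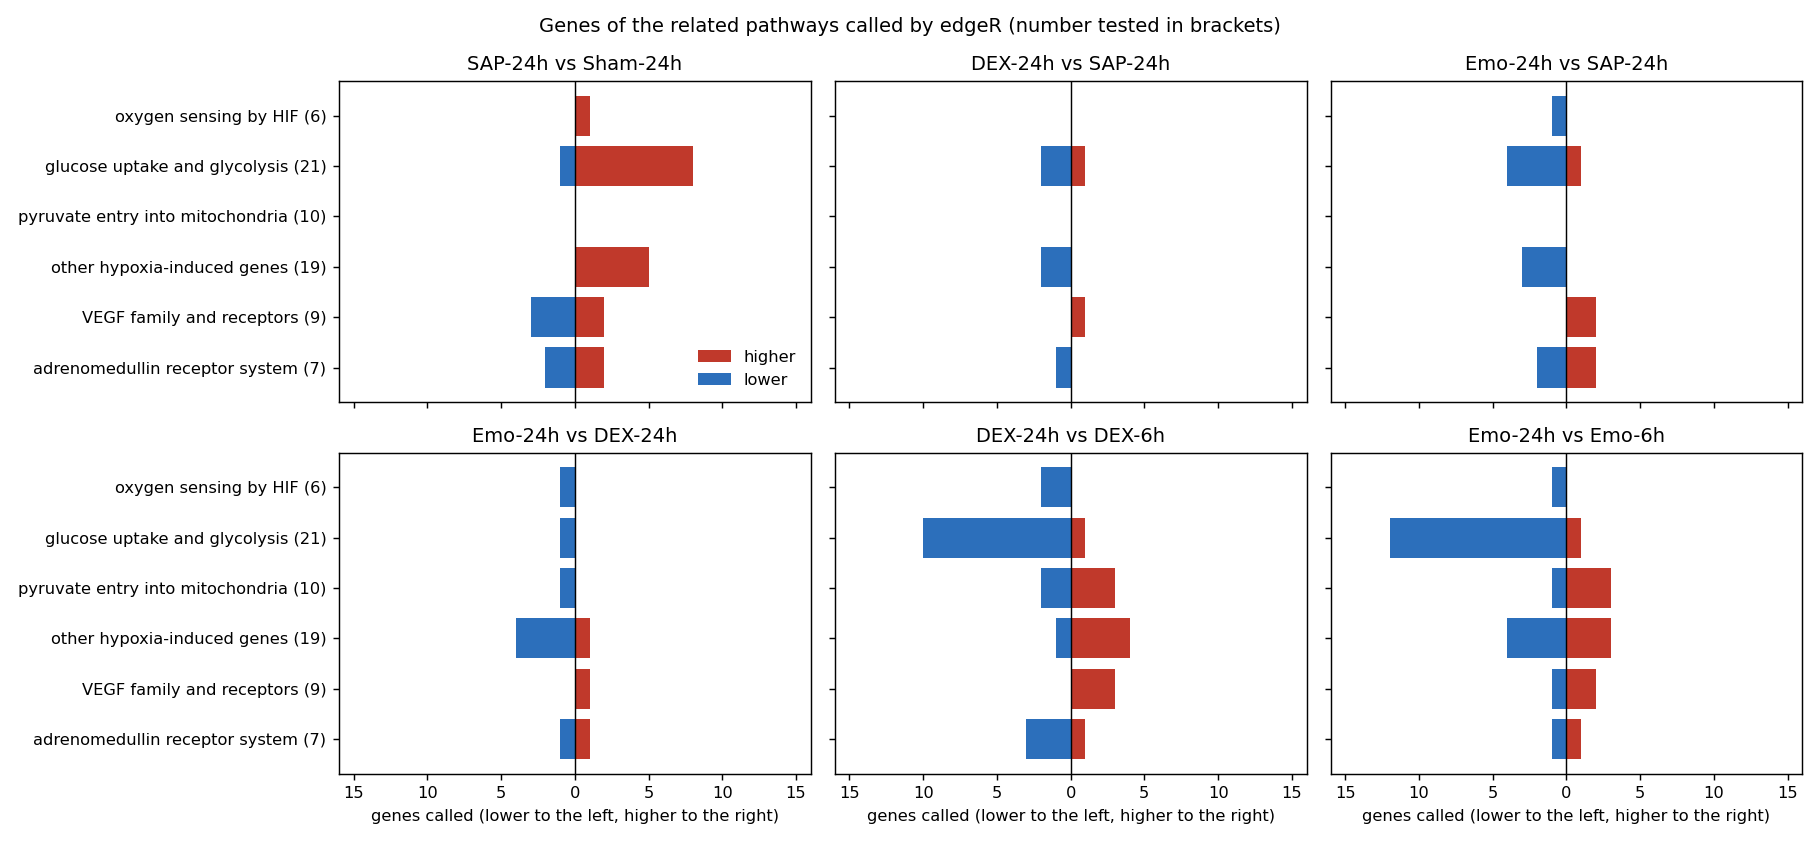
Number of genes called by edgeR in 6 related lists (y axis, number tested in brackets), lower to the left and higher to the right (x axis), in 6 comparisons. Glucose uptake and glycolysis had 8 genes higher and 1 lower in SAP-24h vs Sham-24h (6 and 4 against Con-24h, not drawn), and from 6 to 24 hours 10 lower and 1 higher in DEX and 12 lower and 1 higher in Emo.

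Markers of other cells were read beside these differences. Between SAP-24h and Sham-24h 1 of 9 neutrophil markers was called, a share near the 12.4% of all genes (Il1r2, 3.46 ± 0.86, adjusted p = 0.0129), with a median log2 fold change of 1.69 over the list. Against Con-24h, where 22.1% of all genes were called, 8 of 9 were higher. Against SAP-24h, DEX-24h called 1 of the 9 by edgeR (Ngp, lower), a share near the 7.71% of all genes. DESeq2 called 5 there, with 6 at an unadjusted p under 0.05 and a median of -2.22. Emo-24h called 0 by edgeR (8.59% of all genes) and 1 by DESeq2, with 2 at an unadjusted p under 0.05 and a median of -0.87. Emo-24h lungs held 4458 to 6754 FPKM of these markers and DEX-24h lungs 1102 to 3048 FPKM, and none of the 9 markers was at 0 in all lungs. Over the 30 lungs the level of Ldha had a correlation of 0.55 with the summed neutrophil markers on the log2 scale (0.63 after removal of the group means), Hk2 0.54 (0.54) and Hif1a 0.50 (0.42), against 0.06 (-0.39) for Pfkfb3 and -0.01 (-0.19) for Adm. Other cells gave values of the same size or larger. Hif1a had -0.78 (-0.55) with endothelial markers, Hk2 -0.48 (-0.67) with alveolar type 1 and -0.30 (-0.75) with alveolar type 2 markers, and Ldha -0.46 (-0.59) with alveolar type 1 markers. With alveolar type 1 markers Vegfa and Pdk1 had the opposite sign, 0.408 (0.442) and 0.465 (0.495). With alveolar type 2 markers Vegfa had -0.233 (-0.01) and Pdk1 0.204 (0.411). These describe lungs that share groups and treatments, and the part of neutrophils in the differences was not tested. In Sham-24h replicate 3, with 9402 FPKM of neutrophil markers, Ldha was 213.2 FPKM and Hk2 4.63 FPKM, and in SAP-24h replicate 2, with 4689 FPKM, they were 239.4 and 3.80 FPKM.

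**Figure D5:**
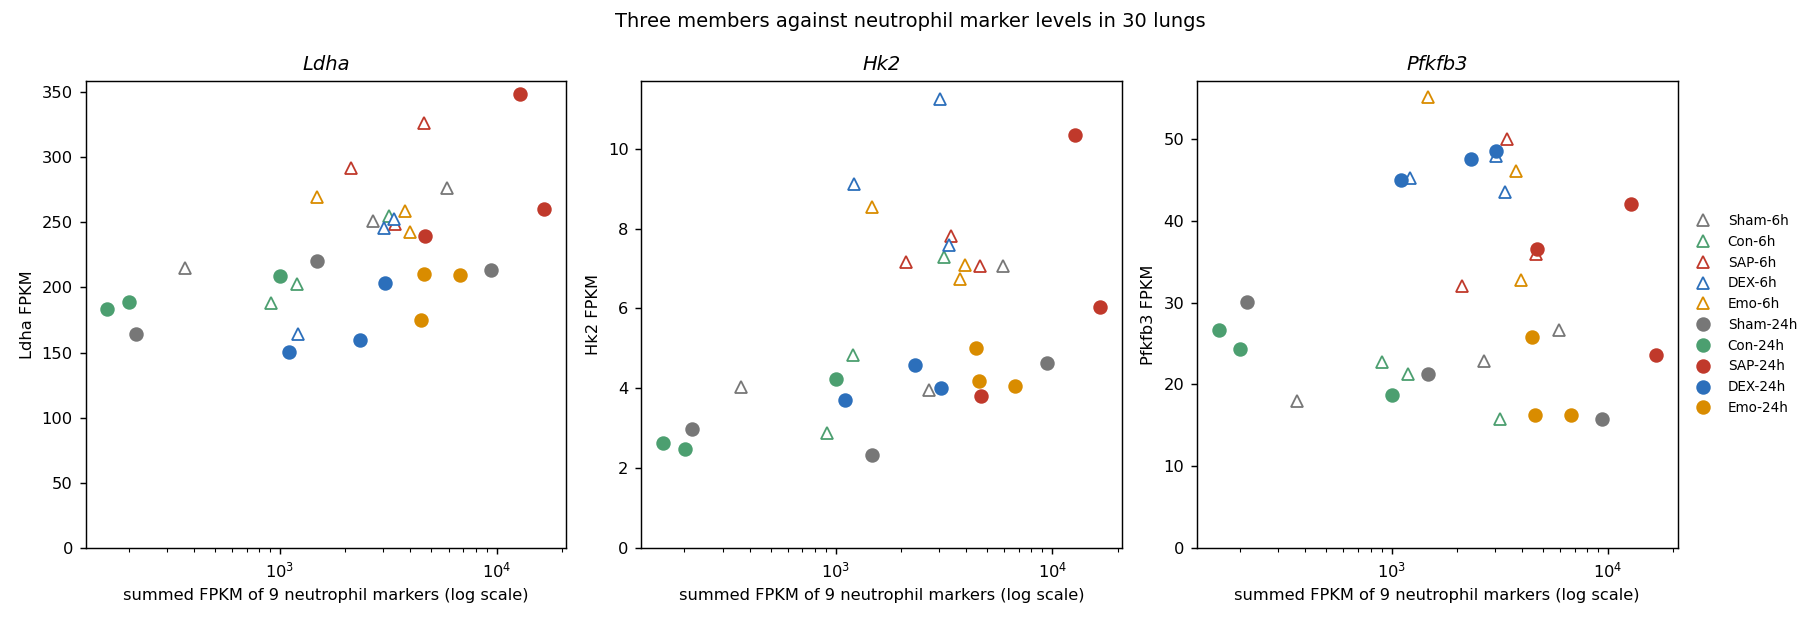
Level of Ldha, Hk2 and Pfkfb3 in FPKM (y axes, from 0) against the summed FPKM of 9 neutrophil markers (x axes, log scale) in each of 30 lungs, triangles at 6 hours and filled circles at 24 hours, coloured by group. Ldha and Hk2 tend to be higher in lungs with more neutrophil markers (correlations of 0.55 and 0.54), and Pfkfb3 does not (0.06).

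The 7 red blood cell markers summed to 8154 to 12660 FPKM in SAP-6h, 972.2 to 4961 FPKM in Sham-6h and 1439 to 2636 FPKM in SAP-24h. Between SAP-6h and Sham-6h (0.27% of all genes) 0 of the 7 were called by edgeR or DESeq2. There 6 had an unadjusted p under 0.05, with a median log2 fold change of 2.08. At 24 hours 5 of 7 were called lower than at 6 hours in SAP (6.01% of all genes) and 6 of 7 in Emo (34.1% of all genes). In Sham (0.992% of all genes), Con (0.0126%) and DEX (25.9%) 0 of 7 were called by edgeR or DESeq2, with 1 at an unadjusted p under 0.05 in DEX and 0 in Sham and Con. Heart muscle markers ranged from 7.46 to 326.2 FPKM between lungs, and within groups Slc2a1 and Egln3 followed them with correlations of 0.64 and 0.62. With 4 skeletal muscle markers, which summed to 0.68 to 19.59 FPKM, these correlations were 0.67 and 0.62. Between SAP-24h and Sham-24h (12.4% of all genes) 0 of the 8 heart muscle markers were called by edgeR or DESeq2, or had an unadjusted p under 0.05, with a median log2 fold change of -1.26 over the list. Between Emo-24h and SAP-24h (8.59% of all genes) 0 of the 8 were called by edgeR or DESeq2 and 1 had an unadjusted p under 0.05, with a median of 1.74. Between DEX-6h and Sham-6h (9.75% of all genes), where Egln3 and Slc2a1 were called, 0 of the 8 were called by edgeR or DESeq2 or had an unadjusted p under 0.05, with a median of 1.04. Alveolar type 1 markers were called lower in SAP-24h than in Sham-24h (12.4% of all genes) in 2 of 6 cases, Clic5 (-0.74 ± 0.23, adjusted p = 0.037) and Aqp5 (-1.55 ± 0.50, adjusted p = 0.0421). Of 8 alveolar type 2 markers 1 was called higher there, a share near that of all genes, Sftpb (0.81 ± 0.24, adjusted p = 0.0289), with a median of 0.43 over the list, 4 at an unadjusted p under 0.05 and 3 called by DESeq2. Between Emo-24h and SAP-24h (8.59% of all genes) 1 of these 8 was called lower, Sftpd (-1.01 ± 0.30, adjusted p = 0.0367), with a median of -0.48, 5 at an unadjusted p under 0.05 and 3 called by DESeq2. Summed endothelial markers read 1478 to 1646 FPKM in DEX-6h and 1189 to 1242 FPKM in Sham-6h. There 1 of the 6 was called higher (9.75% of all genes), Cldn5 (0.66 ± 0.19, adjusted p = 0.0274), with a median of 0.16. Over the 30 lungs Slc2a1 and Pfkfb3 had correlations of 0.475 and 0.478 with these sums (-0.265 and 0.126 within groups). The part of all these cells in the differences was not tested.

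The 10 genes did not vary as a block. Over the 30 lungs, on the scale log2(FPKM + 1), Slc2a1 and Hk2 had a correlation of 0.75 (0.57 after removal of the group means), Adm and Bnip3 0.70 (0.35), Pfkfb3 and Adm 0.63 (0.62) and Egln3 and Bnip3 0.58 (0.41). Vegfa ran against Slc2a1 (-0.64, and -0.25 within groups) and Hk2 (-0.60, and -0.36). Hif1a had a correlation of -0.09 with Slc2a1 over all lungs and of 0.65 within groups. These values describe 30 lungs that share treatments and libraries.

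Among 12409 genes, the ones most like each member over the 30 lungs were mostly outside the fixed lists. Bnip3 ran closest with LOC100365902, which the annotation in the files describes as like the alpha subunit of pyruvate dehydrogenase (0.93), then Vapa (0.90) and Tmem38b (0.89). Hk2 ran with Myd88, the adaptor of Toll-like receptors (0.90), Mt2A, a metallothionein (0.89), and Arid5a (0.89), and Ldha with Irak4, a kinase of the same receptors (0.88), Npr3 (0.88) and Cst7 (0.84). Hif1a ran with Rab10 (0.90), Sbno1 (0.89) and Kpna4 (0.88), Pfkfb3 with Map3k6 (0.89), Sema7a (0.88) and Lrrc32 (0.88), and Slc2a1 with Ptpn1 (0.83), Ece1 (0.81) and Crtc3 (0.81). Vegfa ran with Fancl (0.84), Akr1c19 (0.84) and Rab6b (0.81), Adm with Ptprk (0.86), Tinagl1 (0.82) and Fst, the activin antagonist follistatin (0.82). Pdk1 (Ing2, Mtfr1l and Osbpl1a, 0.75 to 0.77) and Egln3 (Sorbs2, Camk2b and Mgat3, 0.74 to 0.75) had no neighbour above 0.8. With a pseudocount of 0.1, 26 of these 30 names came up again.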

How the data were processed

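Poly(A) RNA of 30 rat lungs was sequenced from directional paired-end libraries. The authors trimmed reads with FASTX-Toolkit, aligned them to the rat Ensembl genome of release 6 with TopHat2, allowing 2 mismatches, and kept uniquely mapped reads. They deposited raw read counts per gene and FPKM values with 2 decimals. The counter and its strand setting are not given in the sources used here, so reads of overlapping genes may be mixed: Hif1a overlaps a long non-coding RNA and Pfkfb3 a small nuclear RNA gene. No sample columns lacked a sample (0).

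Counts were tested with edgeR 4.0.16 (R 4.3.3): filterByExpr with a minimum count of 10 and a minimum total of 15 kept 15934 of 22914 genes, TMM scaling was used, and 1 quasi-likelihood model over all 10 groups left 20 residual degrees of freedom. The test gave 21 pairwise comparisons and 3 interactions with time, and a gene was called at a Benjamini-Hochberg adjusted p under 0.05 over all genes tested. The filter could admit a gene through its high group. A test on simulated data was made before use, and none of its values are given here. FPKM values, as deposited, gave the levels, the overlap of groups and the correlations, on log2(FPKM + 1). The relative library size implied by the FPKM of 2228 well expressed genes was 0.94 to 1.05 times that of the reads on genes. Each rat was counted as 1 replicate. Libraries held 16813949 to 34692306 reads on genes, and Egln3, the lowest member, had 90 to 290 of them.

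The alternatives were RLE scaling, other filters, DESeq2 1.42.0, limma 3.58.1 on log2(FPKM + 1) or log2(FPKM + 0.1), a fit of the compared groups alone, a 2-fold minimum, the replicate number as a block, and each library left out. Same-numbered lungs of DEX-6h and DEX-24h deviated from their group means together (correlations of 0.212 to 0.23), without a label that ties them.

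Named were all 10 genes, up to 4 called genes per related list and comparison, and the 3 genes most like each member. More than 4 were named for glucose uptake and glycolysis in SAP-24h against Con-24h, to show both directions. The members and lists were chosen with earlier results of these data known. Figures used Python 3.11.15 with pandas 2.3.3, numpy 2.4.6 and matplotlib 3.10.9.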

Additional observations from a re-analysis of the deposited data

Results flagged for a closer look

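The difference between Emo and SAP in Slc2a1 was not the same at both times. The interaction was -0.85 on the log2 scale (SE 0.18, adjusted p = 0.023 by edgeR), with 3 lungs in each of the 4 groups. Against SAP the log2 fold change was 0.25 ± 0.13 at 6 hours and -0.60 ± 0.13 at 24 hours. Slc2a1 read 17.5, 20.5 and 18.7 FPKM in Emo-6h lungs and 14.4, 15.8 and 17.4 FPKM in SAP-6h lungs, and the groups changed places at 24 hours. Over 12 refits with 1 library left out the estimate ranged from -0.99 to -0.78, and 3 of them were past an adjusted p of 0.05, up to 0.0879. DESeq2 called it as well, and limma on log2(FPKM + 1) and the fit of the compared groups alone did not. Rats at 6 hours had received 1 dose and those at 24 hours the full course, so that time and dose cannot be told apart.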

How the results depend on the processing

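No called member reversed under any alternative. Over single genes, 2071 results of the fits other than those with a library left out kept their side of the threshold, 62 lost a call and 27 gained one. With 1 library left out 1542 kept their side, 61 lost a call and 17 gained one. Results called in neither fit are among those that kept their side, so these totals do not give the share of calls that was lost. Calls kept in all 9 other fits were Pfkfb3 in DEX-6h and DEX-24h against Sham, in Emo-24h against DEX-24h and over time in Emo, Adm in DEX-24h against Sham-24h and Emo-24h, Bnip3 in Emo against DEX at both times and in SAP-24h against Con-24h, and over time in DEX Slc2a1 and Hk2 and in Emo Slc2a1. The counts of members called moved by more than 1.5 times as follows. DESeq2 called 5 in Emo-24h vs Emo-6h, 5 in DEX-24h vs SAP-24h, 3 in Emo-6h vs DEX-6h, 2 in SAP-24h vs SAP-6h, 2 in the interaction of Emo vs SAP with time, and 1 each in DEX-6h vs SAP-6h, SAP-6h vs Con-6h, SAP-6h vs Sham-6h, Sham-24h vs Con-24h and the interaction of DEX vs SAP with time. With only the groups compared in the fit, and so fewer residual degrees of freedom, 1 was called in DEX-6h vs Sham-6h and in SAP-24h vs Con-24h, and 0 in Emo-24h vs SAP-24h, Emo-6h vs Sham-6h, DEX-24h vs SAP-24h, SAP-24h vs SAP-6h, SAP-24h vs Sham-24h and the interaction of Emo vs SAP with time. A minimum of 2-fold beside the adjusted p left 2 in DEX-6h vs Sham-6h and SAP-24h vs Con-24h, 1 in DEX-24h vs SAP-24h, DEX-24h vs DEX-6h, Emo-24h vs Emo-6h, Emo-6h vs Sham-6h and SAP-24h vs Sham-24h, and 0 in Emo-24h vs SAP-24h, SAP-24h vs SAP-6h and the interaction of Emo vs SAP with time. An unadjusted p with a minimum of 2-fold gave 2 in DEX-6h vs Sham-6h and SAP-24h vs Con-24h, 1 in DEX-24h vs SAP-24h, DEX-24h vs DEX-6h, Emo-24h vs Emo-6h, Emo-6h vs Sham-6h, SAP-24h vs Sham-24h, SAP-6h vs Con-6h and the interaction of DEX vs SAP with time, and 0 in Emo-24h vs SAP-24h and SAP-24h vs SAP-6h. With limma, Emo-24h vs SAP-24h had 2 on log2(FPKM + 1) and on log2(FPKM + 0.1) and 1 without a filter, the interaction of Emo vs SAP with time had 0 in all these fits, SAP-24h vs SAP-6h had 0 on log2(FPKM + 1) with and without a filter, and Emo-6h vs Sham-6h had 1 without a filter. The count fit with no filter on low counts called 1 in Emo-6h vs Sham-6h. The cause of these shifts was not tested.

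With the replicate number as a block, 1 member was called in DEX-24h vs SAP-24h and 1 in Emo-6h vs Sham-6h, and the other counts stayed within 1.5 times. In 20 of 21 comparisons at least 1 same-numbered pair of lungs did not exceed a correlation of 0.1 (from -0.36 to 0.36 over all 21). Whether same-numbered lungs shared a batch was not tested. In DEX-24h vs DEX-6h, where all same-numbered pairs exceeded 0.1, the block kept the count of 2.

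With 1 library left out, the count ranged from 1 to 5 in SAP-24h vs Sham-24h, from 2 to 5 in SAP-24h vs Con-24h and in DEX-6h vs Sham-6h, from 1 to 4 in Emo-24h vs SAP-24h, from 1 to 3 in DEX-24h vs SAP-24h and in DEX-24h vs DEX-6h, from 0 to 2 in Emo-6h vs Sham-6h, in SAP-24h vs SAP-6h and in the interaction of Emo vs SAP with time, and from 0 to 1 in Emo-6h vs DEX-6h, in Sham-24h vs Con-24h and in the interaction of DEX vs SAP with time. Egln3, the lowest gene, had 90 to 290 reads per library, and the size of difference detectable at this depth was not tested.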
